A study of Mus musculus with 8 samples.

Results

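The receptors for glucocorticoid hormone and 6 genes known as their targets or as stress-induced genes were followed through the mouse cerebral cortex, nucleus by nucleus. These 8 genes were taken by symbol from the 32285 genes counted: the receptors Nr3c1 and Nr3c2, and Fkbp5, Sgk1, Tsc22d3, Zbtb16, Hif3a and Ddit4. They were chosen by symbol with their UMI counts per library and cell type in these same libraries already known, so counts over the 8 genes are descriptions, read against the share of all genes that behaved likewise. Each library held nuclei of 1 C57BL/6J mouse killed at postnatal day 25. The WT group was 4 wild type mice, and the Chd8het group 4 mice heterozygous for Chd8, a gene for a chromatin remodelling protein. Both groups had 2 males and 2 females. Single indexing was used for the animal numbered 1 and dual indexing for the animal numbered 2 in every combination of sex and genotype, which puts 4 libraries under each index type. All 8 libraries shared the strain, the age, the removal of the medial cortex, flash-freezing, parallel isolation of nuclei, and 10x Chromium 3' chemistry (v3). The sources used here do not describe the Chd8 allele. The labels speak of 4 pairs matched for litter and sex without saying which libraries form a pair.

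Corticosterone, the main glucocorticoid of the mouse, enters cells and binds 2 related receptors that then act as transcription factors. Nr3c1 encodes the glucocorticoid receptor, and Nr3c2 encodes the mineralocorticoid receptor, which binds the same hormone with higher affinity. Among the genes that the bound receptor switches on in many tissues, Fkbp5 encodes a co-chaperone that lowers the receptor's affinity for hormone and so closes a feedback loop. Hormone levels follow the time of day as well as stress, and neither the time of killing nor the handling was given in the sources used here.

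The 8 libraries held 97772 barcodes in all, between 69503598 and 98132783 UMIs (unique molecular identifiers, one per captured RNA molecule) in each. Filters left 78168 nuclei, and 44097 of them (56.4%) were assigned to a cell type by their marker genes, of which 121 of 136 were highest in their own type. The type names stand for nuclei that resemble that type by these markers. The 15 types tested are those with no library under 30 nuclei, which L6b, striatal, border macrophage, mural and ependymal nuclei did not meet. The median UMI count per nucleus was 4976 to 5944 in single-indexed and 5990 to 7528 in dual-indexed libraries. Any pair of libraries shared 27 to 63 barcodes, at most 0.474% of the smaller library. Chd8 itself stood at 75.1 to 81.5 CPM (counts scaled to a library total of 1000000) in WT and 75.8 to 89.6 CPM in Chd8het libraries over all nuclei, a log2 difference of -0.01 ± 0.07 (SE) with an adjusted p of 1 by edgeR's quasi-likelihood test. With the allele not described, counts of 3' tags need not fall within its altered segment, so these values neither check nor contradict the genotype labels. Xist was at 788 to 1255 CPM in the 4 female and at 0.156 to 0.331 CPM in the 4 male libraries, which matched the sex labels in all 8.

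On GRCm38 (GENCODE M21 annotation), Fkbp5 lies on chromosome 17 from 28399094 to 28517527, minus strand, and Sgk1 on chromosome 10 from 21882184 to 21999903, plus strand. Zbtb16 spans 48654297 to 48836222 of chromosome 9, Hif3a 17031507 to 17062427 of chromosome 7, and Ddit4 59949669 to 59951834 of chromosome 10, all on the minus strand. Nr3c2 covers 76899442 to 77245012 of chromosome 8, plus strand, and Tsc22d3 is X-linked, from 140539528 to 140600659, minus strand. All are protein-coding. The annotation places 4 further genes within or across Fkbp5, of which 2 lie on the opposite strand. One of the latter, an antisense gene matched by its identifier and listed in the files as Gm22146, had UMIs equal to 10.8% of those of Fkbp5 over all nuclei and to between 7.30% and 13.6% in the tested types. How strand was used in counting is not given in the sources used here, so reads of Fkbp5 and of its opposite-strand neighbours cannot be told apart.

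The DNA element that the glucocorticoid receptor binds is commonly written as the palindrome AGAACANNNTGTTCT. RefSeq start sites on GRCm38.p6, with 250 bases before and 50 after each, were at hand for 6 of the 8 genes (13 starts). The full element was found in 1 of those 13 windows, at one of the starts of Sgk1, a kinase gene that corticosteroids induce, and in 3 of all 32851 mouse promoters of the same length (0.00913%). Its hexamer AGAACA, searched on both strands and contained in both arms of the full element, was in 4 of the 13 windows and in 6233 of all promoters (19.0%). The Sgk1 window is shown for the element, and the Fkbp5 window because Fkbp5 had the widest range over the libraries of the 8 genes, in astrocytes. Capitals mark the match to the full element, whose first base lies 189 bases before the start. Only the bases before the start are printed, 5′ to 3′ on the gene's strand, for Sgk1 at chr10:21993640-21993889 (plus) and for Fkbp5 at chr17:28486150-28486399 (minus).
Sgk1: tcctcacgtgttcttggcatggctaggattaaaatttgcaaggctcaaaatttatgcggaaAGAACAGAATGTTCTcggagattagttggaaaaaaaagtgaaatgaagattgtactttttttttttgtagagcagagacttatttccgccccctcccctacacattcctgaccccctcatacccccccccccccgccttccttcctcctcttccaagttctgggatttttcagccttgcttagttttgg
Fkbp5: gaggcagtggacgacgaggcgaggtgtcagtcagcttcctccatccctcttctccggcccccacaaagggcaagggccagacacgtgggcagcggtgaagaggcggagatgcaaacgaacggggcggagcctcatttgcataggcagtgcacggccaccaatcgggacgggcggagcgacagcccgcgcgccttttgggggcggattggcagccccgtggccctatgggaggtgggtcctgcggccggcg
The Fkbp5 window held neither the full element nor the hexamer, which says only that these letters are not in this window.

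Across cell types the 2 receptors were distributed differently. Nr3c1 had the narrowest span of the 8 genes over the types. In CPM over the genes tested in each type, its highest mean was in endothelial nuclei (271 ± 65.9 CPM, SD over 8 libraries), followed by microglia (252 ± 26.4 CPM). Its lowest was in MGE-derived interneurons (94.7 ± 13.9 CPM), a 2.87-fold span. Of the 14 steps between neighbouring types in the order of Nr3c1 levels, 1 exceeded the larger SD of the types it joined. Nr3c2 spanned 12.6-fold, from 732 ± 172.7 CPM in fibroblasts and 593 ± 78.4 CPM in CGE-derived interneurons to 58.3 CPM in L4/5 IT neurons. Astrocytes (362 CPM) and L5 extratelencephalic (ET) neurons (298.6 CPM) came next in the order for Nr3c2, and 4 of its 14 steps exceeded the larger SD. The CPM values of the 8 genes are scaled by edgeR's TMM factors and by the UMIs of the genes tested in a type, not by all its UMIs. The genes tested ranged from 3116 in endothelial nuclei to 14668 in L2/3 IT neurons. Types with few tested genes, such as endothelial nuclei and fibroblasts (4698), thus have raised CPM against other types. The order of types and the spans can differ on totals of all UMIs. Endothelial nuclei, first for Nr3c1 above, had a lower share of Nr3c1 among all their UMIs, pooled over the 8 libraries, than microglia had. Values of marker sums, Chd8 and Xist are plain counts over library totals. The levels of types were not tested against each other, and all types come from the same 8 libraries.

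The hormone-induced genes had their highest levels outside the excitatory neurons. Fkbp5 was highest in fibroblasts (762 ± 317.8 CPM) and microglia (651 ± 389 CPM), then in astrocytes (193 ± 204 CPM) and oligodendrocytes (144 ± 88.2 CPM), and lowest in L4/5 IT neurons (23.0 ± 4.10 CPM). Those means spanned 33.2-fold, yet 1 of 14 steps, from microglia to astrocytes, exceeded the larger SD. Tsc22d3, which encodes the glucocorticoid-induced leucine zipper protein, peaked in oligodendrocytes (231 ± 46.2 CPM), with 109.7 CPM in endothelial nuclei, 83.5 CPM in astrocytes and 59.8 CPM in microglia. Its level in L2/3 IT neurons was 1.77 CPM, and whether counts this low came from those nuclei themselves was not tested. Hif3a, a member of the hypoxia-inducible factor family, stood at 232 ± 64.5 CPM in astrocytes and at 47.1 CPM in fibroblasts, the next type, and spanned 147-fold.

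Sgk1 had its highest means in committed oligodendrocyte precursors (258 CPM) and OPC (251 CPM), with 223 CPM in CGE interneurons and 21.8 CPM in astrocytes, the lowest. Zbtb16, which encodes a zinc-finger transcription factor also called PLZF, was highest in CGE interneurons (471 CPM), fibroblasts (439 CPM) and endothelial nuclei (431.5 CPM) and lowest in microglia (84.5 CPM). None of the 14 steps for Zbtb16 exceeded the larger SD. Ddit4, an inhibitor of growth signalling through mTORC1, was scarce: 65.7 CPM in endothelial nuclei rested on 66 UMIs, and oligodendrocytes (31.6 CPM) and microglia (22.7 CPM) followed. Among the tested pairs of gene and type, the UMIs summed over the 8 libraries ran from 68 for Hif3a in fibroblasts to 10609 for Zbtb16 in L2/3 IT neurons.

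**Figure D1:**
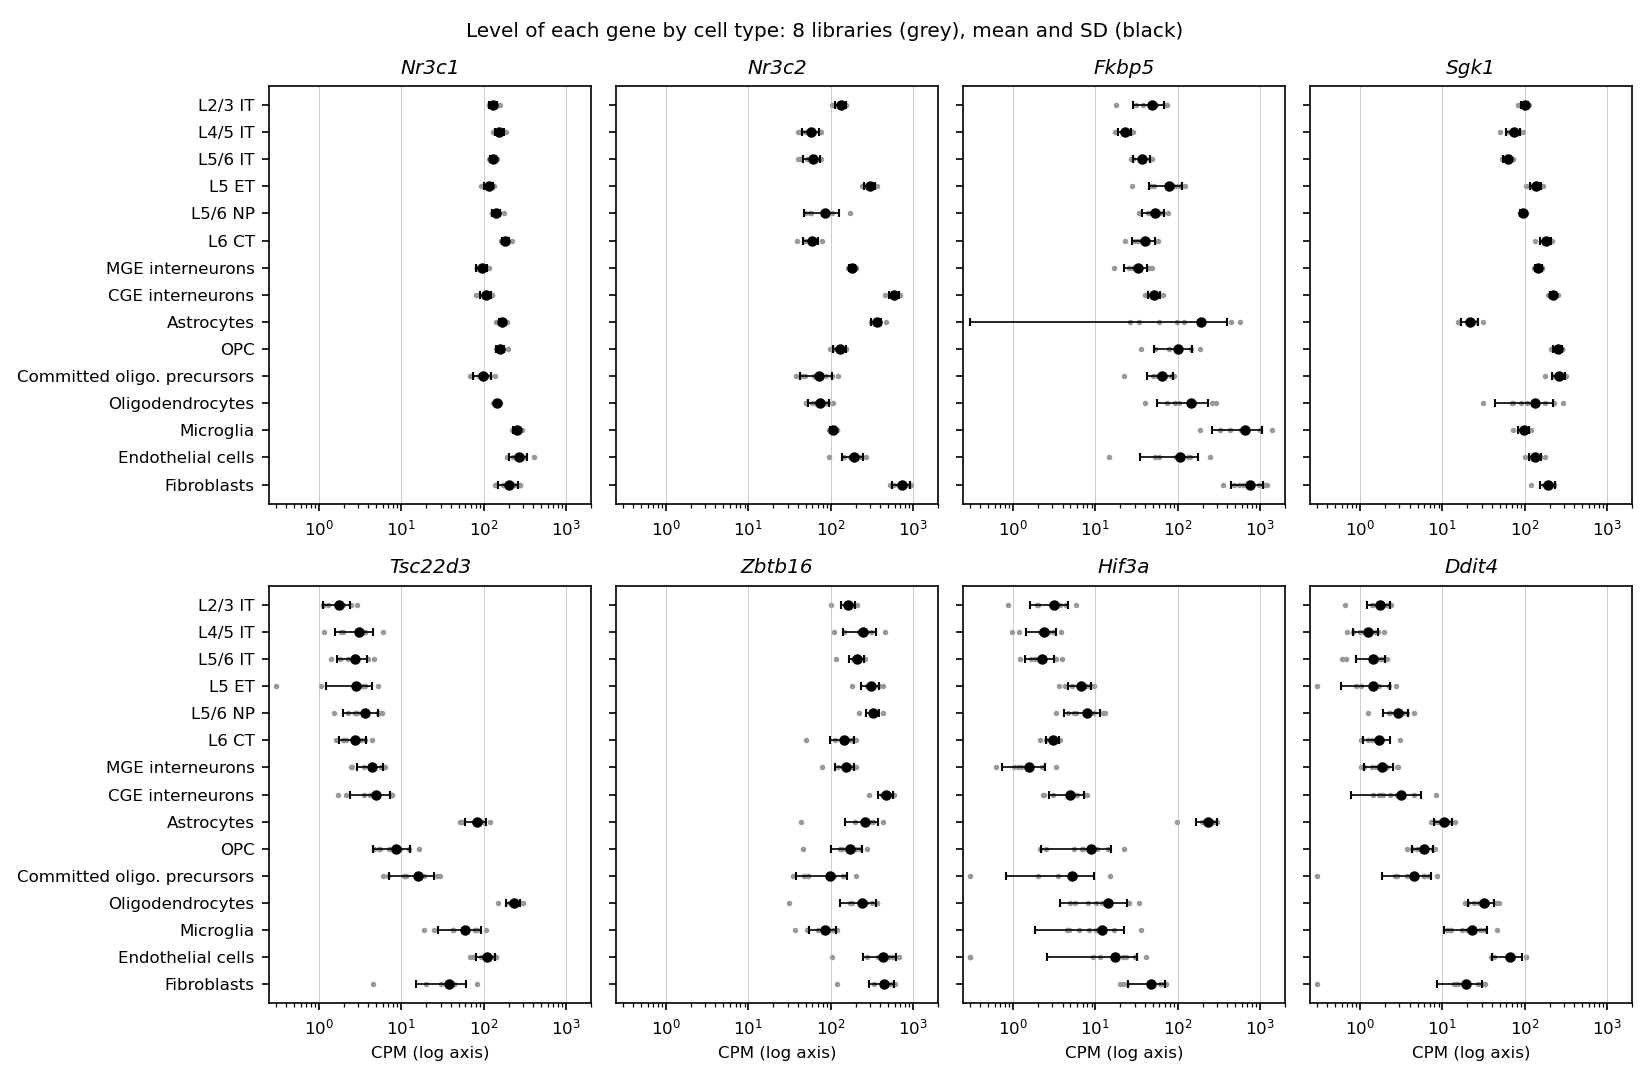
Level of each of the 8 genes (CPM, log axis) in the 15 tested cell types. Grey points are the 8 libraries and black points with bars the mean and SD. CPM is relative to the UMIs of the genes tested in each type. Values under 0.3 CPM are drawn at 0.3, and lower bars stop there. Fkbp5, Tsc22d3 and Hif3a have their highest means in glial or fibroblast nuclei, while Nr3c1 spans 2.87-fold.

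A description of likeness over the 15 types, across 16583 genes with at least 500 UMIs, placed Ier5 nearest to Nr3c1 (Pearson r of mean log2 CPM 0.92), then 1110008P14Rik (0.91), Ctxn1 (0.90), Sprn (0.89) and Ctnnd1 (0.89). Adra1a, an adrenergic receptor gene, was nearest to Nr3c2 (0.87), followed by Fam20c (0.82), Csdc2 (0.79), Mrps9 (0.79) and Egfr (0.79). For Fkbp5 the nearest was Gm22146, the antisense gene inside it (0.96), then Zfp592 (0.92), Bhlhe41 (0.92), Nt5dc1 (0.92) and Notch2 (0.92). These are correlations over types drawn from the same 8 libraries.

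In astrocytes, Fkbp5 differed between animals more than almost any other gene. Values are given for WT male 1, WT male 2, WT female 1 and WT female 2, and then for Chd8het male 1, male 2, female 1 and female 2. The level of Fkbp5 in astrocytes was 571, 118, 26.5 and 59.3 CPM in the WT libraries and 446, 34.0, 195 and 97.3 CPM in the Chd8het libraries. WT male 1 and Chd8het male 1 were high, WT female 1 and Chd8het male 2 low, and the genotypes overlapped. The highest library was 21.5-fold above the lowest, a log2 CPM range of 4.37, against a median range of 0.845 over the 11788 genes tested in astrocytes. Of those genes, 9 (0.0764%) had a range at least as wide.

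In microglia Fkbp5 stood at 1398, 593, 184 and 327 CPM in WT and at 1004, 671, 601 and 428 CPM in Chd8het libraries. In oligodendrocytes it stood at 288, 138, 40.1 and 74.3 CPM in WT and at 259.9, 92.45, 159.5 and 103 CPM in Chd8het libraries. The single-indexed males were highest and WT female 1 lowest in both types. In L2/3 IT neurons Fkbp5 was at 73.5, 54.0, 17.75 and 37.4 CPM in WT and at 72.2, 52.15, 47.0 and 31.0 CPM in Chd8het libraries. There the 4 males lay above the 4 females.

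Over the 15 types, Fkbp5 was highest in WT male 1 in 11, in Chd8het male 2 in 3 and in Chd8het male 1 in 1, and it was lowest in WT female 1 in 12. The same nuclei were examined for markers of other types. In astrocytes the summed level of the 9 microglial markers was 196 to 229.7 CPM and that of the 8 fibroblast markers 186 to 259 CPM. All 9 and all 8 were detected. The microglial sum was highest in WT male 1 and lowest in WT female 1, and the fibroblast sum highest in WT female 1. The 11 oligodendrocyte markers, all detected in astrocytes, summed to between 386 CPM (WT male 2) and 756 CPM (Chd8het male 1), with 497 CPM in WT male 1. In oligodendrocytes the microglial sum ran from 165 CPM (WT female 1) to 332 CPM (Chd8het male 2), with all 9 markers detected. In microglia the 10 astrocyte markers, all detected, summed to between 414 and 748 CPM and were highest in Chd8het male 1 (748 CPM) and WT male 1 (660.5 CPM), the 2 libraries that were also highest for Fkbp5 in microglia. The 11 oligodendrocyte markers there summed to between 652 and 1101 CPM, highest in Chd8het male 1. The 8 fibroblast markers in microglia summed to 14.4 to 50.1 CPM and the 4 markers of border macrophages to 15.6 to 50.4 CPM, the latter highest in WT male 1. The part of these other nuclei or of their RNA in the Fkbp5 levels was not tested.

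**Figure D2:**
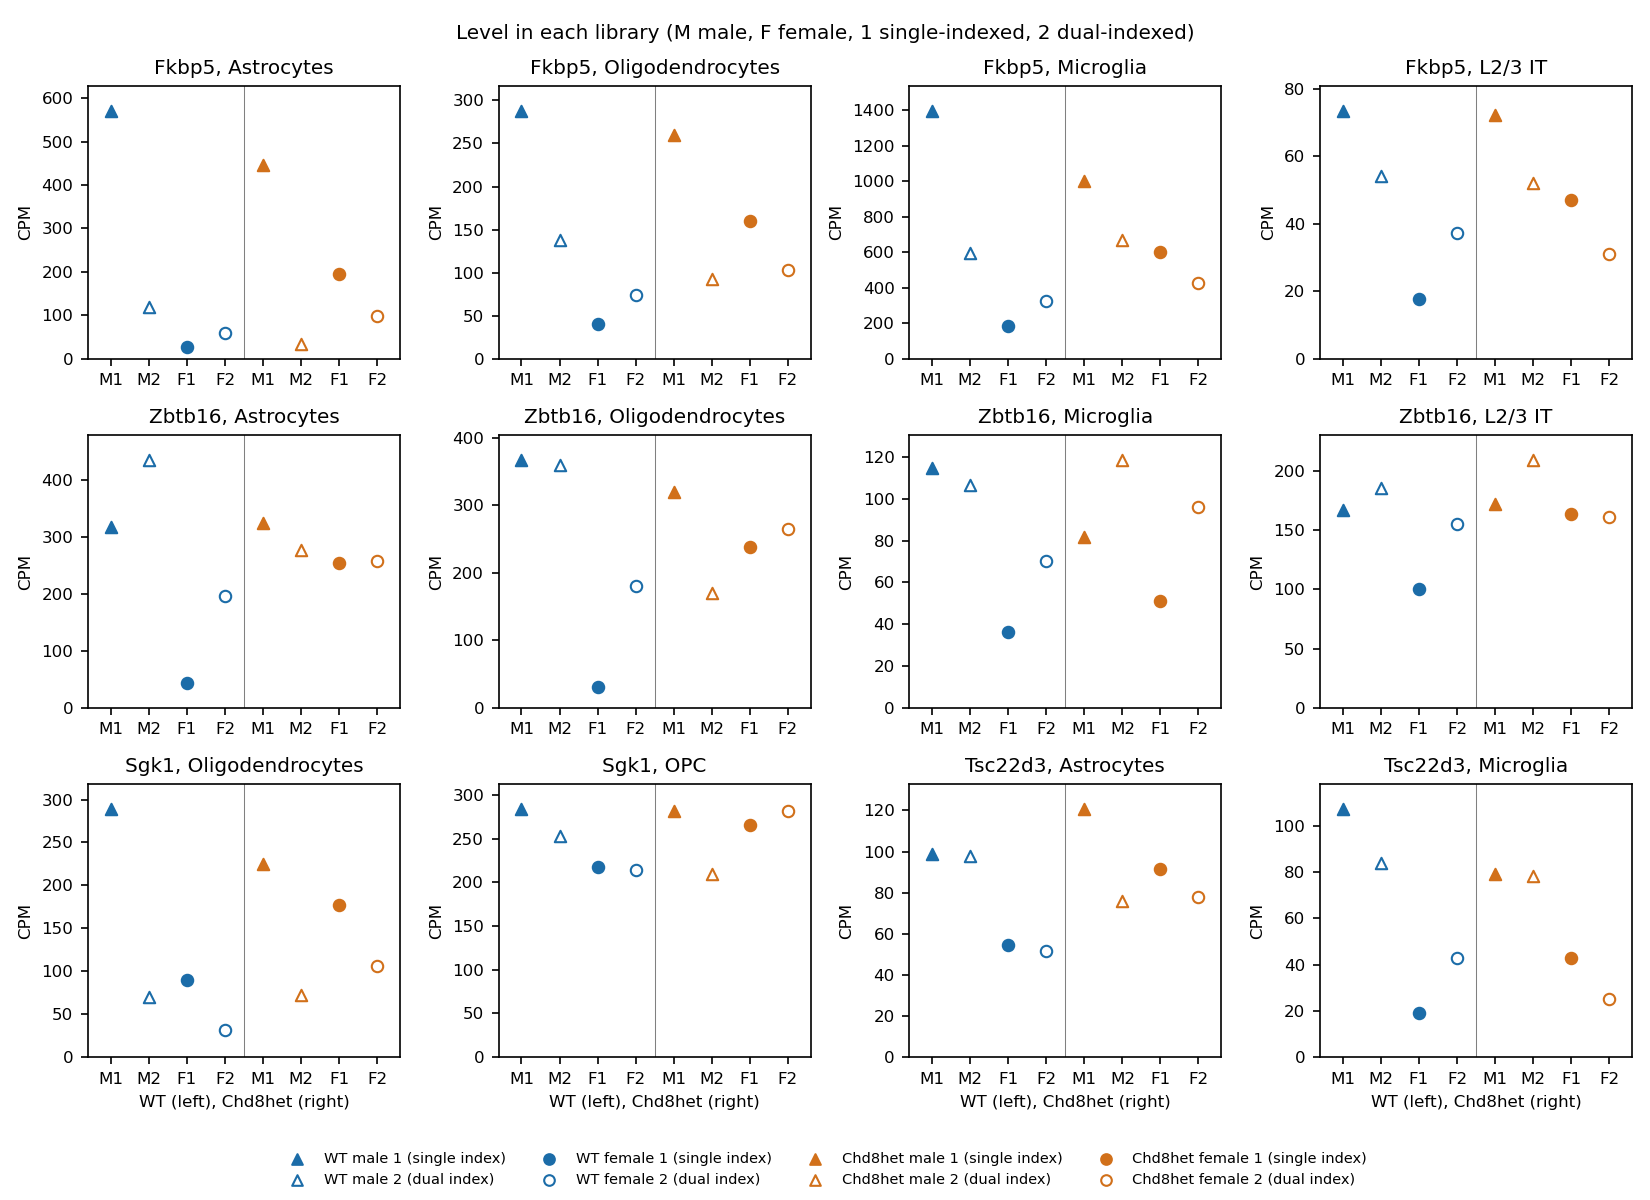
Level (CPM, linear axis from 0) of Fkbp5, Zbtb16, Sgk1 and Tsc22d3 in each of the 8 libraries for the cell types named above the panels, with WT and Chd8het in separate colours, M and F for sex, and 1 and 2 for single and dual indexing. Fkbp5 in astrocytes runs from 26.5 CPM in WT female 1 to 571 CPM in WT male 1, and Zbtb16 is lowest in WT female 1 in astrocytes and oligodendrocytes.

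Zbtb16 was set apart by 1 animal. In oligodendrocytes its level was 367, 360.3, 31.35 and 181 CPM in WT and 319, 170.5, 238 and 265 CPM in Chd8het libraries. WT female 1 lay below all others, and the highest library was 11.7-fold above it, a log2 range of 3.51 that 0.16% of genes tested in oligodendrocytes matched. Astrocytes gave 316, 434, 44.0 and 196 CPM in WT and 324, 276, 254 and 257 CPM in Chd8het libraries. Again WT female 1 was lowest, and the 4 males lay above the 4 females. Zbtb16 was lowest in WT female 1 in 14 of 15 types, and highest in Chd8het male 2 in 8, WT male 2 in 5 and WT male 1 in 2.

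Sgk1, Hif3a and Ddit4 followed another order in oligodendrocytes, in which the single-indexed males stood highest. Sgk1 had 289, 70.05, 90.0 and 31.1 CPM in the WT and 224.5, 72.1, 177 and 106 CPM in the Chd8het libraries, a 9.30-fold range. Hif3a had 34.3, 12.3, 8.13 and 5.6 CPM in WT and 25.7, 4.97, 11.95 and 10.2 CPM in Chd8het libraries. For Ddit4 the values were 44.4, 18.8, 33.7 and 20.4 CPM in WT and 48.4, 24.4, 35.25 and 27.6 CPM in Chd8het libraries, with all 4 single-indexed libraries above all 4 dual-indexed ones.

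Nr3c1 varied less among animals than the median gene in all 15 types, and Nr3c2 in 8 of 15. The log2 range of Nr3c1 was 0.25 in oligodendrocytes and 0.39 in microglia, narrower than in 98.8% and 96.3% of the genes tested there. Nr3c2 had a range of 0.32 in microglia, where 98.7% of genes were at least as wide, but 1.77 in L5/6 near-projecting (NP) neurons, where 6.35% were, and 1.57 in committed oligodendrocyte precursors, where 14.3% were. Its range also exceeded the median gene's in L4/5 IT (0.92), L5/6 IT (0.91), L6 CT (0.97), oligodendrocyte (1.08) and endothelial nuclei (1.36). Hif3a in astrocytes, its main type, was at 269, 274, 195 and 204 CPM in WT and at 295.5, 97.8, 260.4 and 263 CPM in Chd8het libraries, with Chd8het male 2 alone far below the rest.

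**Figure D3:**
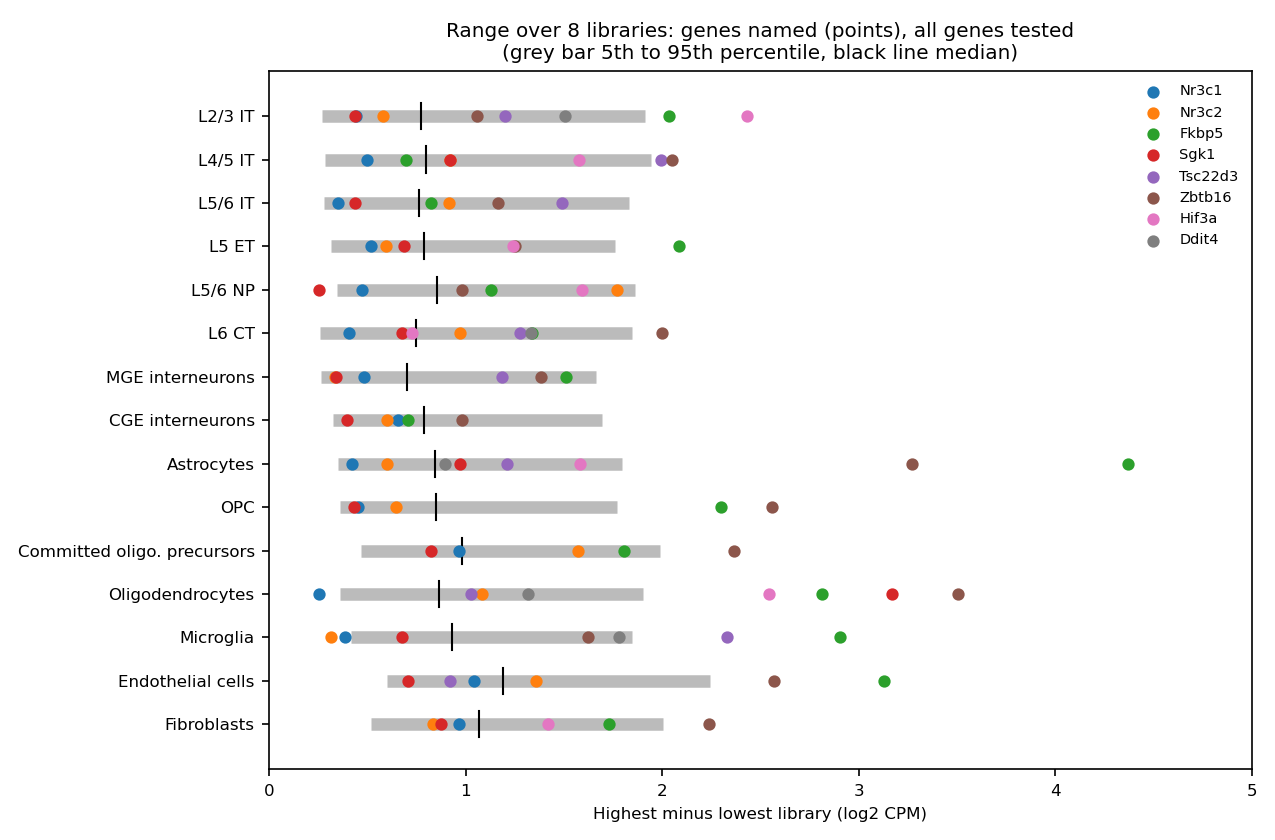
Difference between the highest and lowest of 8 libraries (log2 CPM) within each tested type. Coloured points are the 8 genes, the grey bar spans the 5th to 95th percentile of all genes tested in that type, and the black line is their median. Fkbp5 in astrocytes (4.37) and Zbtb16 in oligodendrocytes (3.51) lie far to the right of the bars, and Nr3c1 in oligodendrocytes (0.25) to the left of the median.

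No difference between genotypes was called for any of the 8 genes. By edgeR's quasi-likelihood test with sex in the model, 0 of 97 gene-by-type tests passed a Benjamini-Hochberg adjusted p of 0.05, as did 0.0% of the 155596 tests of all genes. Of the 8 genes, 5 were tested in all 15 types, Tsc22d3 in 9, Hif3a in 8 and Ddit4 in 5, the rest having too few counts. At an unadjusted p under 0.05 there were 3 of 97, against 2.63% of all tests. DESeq2 also called 0 (0.00257% of all tests), as did a fit with the replicate block (0.0257%). The smallest adjusted p among the 97 was 0.952. Over all nuclei 0 of the 8 genes were called (background 0.0%), with 0 at an unadjusted p under 0.05 (301 of all 21298 genes).

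The fitted difference of Fkbp5 was nevertheless above 0 in all 15 types, from 0.05 to 0.64 on the log2 scale with a median of 0.30. That of Zbtb16 was above 0 in 14 of 15, where 50.5% of all tests gave a higher value in Chd8het. The types share the same 8 animals, so these counts are not independent. In astrocytes the Fkbp5 difference was 0.51 ± 0.76 (SE), with group means of 194 ± 254 CPM in WT and 193 ± 181 CPM in Chd8het libraries (SD, 4 libraries each). Without the sex term it was -0.01, and on leaving out 1 library it ran from 0.09 (without WT female 1) to 1.43 (without WT male 1). It was 1.14 without Chd8het male 2, 0.17 without Chd8het male 1, 0.09 without Chd8het female 1 and 0.32 without WT male 2. For Zbtb16 in oligodendrocytes the difference was 0.31 ± 0.48, and it was -0.18 without WT female 1.

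The 3 tests with an unadjusted p under 0.05 were Tsc22d3 in L4/5 IT neurons (0.90 ± 0.33 higher in Chd8het), Hif3a in the same neurons (0.80 ± 0.35) and Zbtb16 in MGE interneurons (0.37 ± 0.14). Their adjusted p from edgeR's quasi-likelihood test was 1 in each. Hif3a in L4/5 IT neurons was the 1 of 97 cases in which all 4 Chd8het libraries lay above all 4 WT libraries, as they did in 1.12% of all tests. There it was at 2.45, 0.974, 2.10 and 1.18 CPM in WT and at 2.696, 3.05, 3.79 and 2.69 CPM in Chd8het libraries, from 90 UMIs in all. Whether the genotype difference itself depended on sex was tested by an interaction term. In edgeR's test it gave 0 calls in 105 tests, 8 of them over all nuclei, with a smallest adjusted p of 0.998. Within types 6 of 97 had an unadjusted p under 0.05, against 2370 of 155596 tests of all genes, of which 0 were called. The types share the same 8 animals, so these 6 are not independent.

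Index type, which equals replicate number, separated more of the genes than genotype did. The edgeR test of dual against single indexing, with sex and genotype in the model, called 16 of 97 (10 higher in dual-indexed libraries, 6 lower), against 12.2% of all tests, and 30 had an unadjusted p under 0.05, against 26.9%. A share this near the background is no result about these genes as a group. DESeq2 called 10 (7.23% of all tests), and with no count filter 26 of 120 were called (7.31%). The calls by gene were 5 for Nr3c2, 3 for Sgk1, 2 each for Zbtb16, Hif3a and Ddit4, 1 each for Nr3c1 and Tsc22d3, and 0 for Fkbp5. The dual-indexed libraries also had more UMIs per nucleus, and more of their nuclei passed a stricter filter (at least 1000 genes and at most 1% mitochondrial UMIs). In microglia that filter left 26.6% to 39.1% of nuclei in single-indexed and 50.5% to 71.0% in dual-indexed libraries, and in oligodendrocytes 72.8% to 81.6% and 86.2% to 91.2%. The shares did not overlap in 7 of the 15 types. Depth, these shares and index type cannot be told apart here.

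The receptors were higher in the dual-indexed libraries wherever they were called. Nr3c1 in MGE interneurons was at 83.3, 115, 82.3 and 113 CPM in WT and at 83.0, 98.0, 82.6 and 100.7 CPM in Chd8het libraries. The 4 single-indexed libraries lay between 82.3 and 83.3 CPM, below the 4 dual-indexed ones, a log2 difference of 0.36 ± 0.08 (edgeR adjusted p 0.00345, where 21.3% of genes in MGE interneurons were called). Nr3c2 in oligodendrocytes was at 50.5, 84.5, 59.2 and 86.6 CPM in WT and at 64.1, 92.45, 49.6 and 106 CPM in Chd8het libraries, again without overlap (0.72 ± 0.13, edgeR adjusted p 0.0023, background 12.8%). Nr3c2 was also called higher in L2/3 IT (0.35), L5 ET (0.32), L6 CT (0.45) and CGE nuclei (0.28), where 22.6%, 15.1%, 14.8% and 11.6% of genes were called. Each of these 4 calls was lost in 5 of 8 leave-one-out fits, that in CGE nuclei also with the DESeq2 Wald test, that in L6 CT nuclei with a sex by genotype term, and that in L2/3 IT nuclei with types from clusters (0.17). Without Chd8het male 2 the L6 CT difference was 0.30. All dual-indexed libraries lay above all single-indexed ones in 4 types for Nr3c2, 2 each for Nr3c1 and Sgk1, and 1 for Zbtb16, as in 7.91% of all tests.

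Sgk1 was called in both directions, in different types. It fell by 1.45 ± 0.26 on the log2 scale in oligodendrocytes of dual-indexed libraries (edgeR adjusted p 0.00257). In L6 corticothalamic (CT) neurons it was at 167, 214, 134 and 188 CPM in WT and at 178.5, 208, 167 and 184 CPM in Chd8het libraries, where it rose by 0.30 ± 0.08 (edgeR adjusted p 0.0286). In MGE interneurons it rose by 0.26 ± 0.07. The L6 CT call was lost in 5 of 8 leave-one-out fits, and the MGE call with the DESeq2 Wald test and without WT female 1, while the oligodendrocyte call held in these fits. The difference between these types was not tested. Zbtb16 rose in CGE interneurons (0.48 ± 0.10, edgeR adjusted p 0.00294) and L5 ET neurons (0.46 ± 0.10, edgeR adjusted p 0.00488), and its difference was above 0 in all 15 types, where 49.5% of all tests were above 0.

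Lower in the dual-indexed libraries were Ddit4 in oligodendrocytes (-0.81 ± 0.17, edgeR adjusted p 0.00601) and microglia (-1.08 ± 0.31, 10.4% of genes called there), and Hif3a in oligodendrocytes (-1.18 ± 0.34) and L2/3 IT neurons (-1.02 ± 0.32). Each of these Hif3a calls was lost in 6 of the 8 leave-one-out fits, with the DESeq2 Wald test and under the stricter nucleus filter, and in oligodendrocytes the difference was -0.71 without Chd8het male 2. The L2/3 IT call was also lost with types from clusters and with a sex by genotype term. The Ddit4 call in microglia was lost in 5 leave-one-out fits and with doublets kept, and DESeq2 gave no adjusted p for it (-1.08, unadjusted p 0.0141). Tsc22d3 in MGE interneurons was lower as well (-0.82 ± 0.27), but that call was lost on leaving out any 1 of 7 libraries, with doublets kept and with the DESeq2 Wald test. All single-indexed libraries lay above all dual-indexed ones in 1 type each for Tsc22d3 and Ddit4, as in 8.14% of all tests. Over all nuclei, Ddit4 was the 1 gene called of 8 (-0.44 ± 0.11, edgeR adjusted p 0.019, background 34.0%), and that call was lost without WT male 1, WT male 2, WT female 1 or Chd8het male 1. Fkbp5 had a difference below 0 in all 15 types, of which the largest in size, in astrocytes, was -1.68 ± 0.57 (edgeR adjusted p 0.087). That difference passed the threshold without WT female 1 (-2.35), without Chd8het female 2 (-2.19) and with no count filter (-1.69), and it was -1.08 without WT male 1 and -0.94 without Chd8het male 2. Over the 8 leave-one-out fits, the calls that held each time were those of Nr3c1 in MGE interneurons, Nr3c2, Sgk1 and Ddit4 in oligodendrocytes, and Zbtb16 in CGE interneurons and L5 ET neurons. The number of calls fell from 16 to 8 without WT male 1, to 7 without WT male 2, and to 9 without Chd8het male 1 or without Chd8het male 2, where 5.7%, 7.09%, 6.34% and 8.71% of all tests were called.

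**Figure D4:**
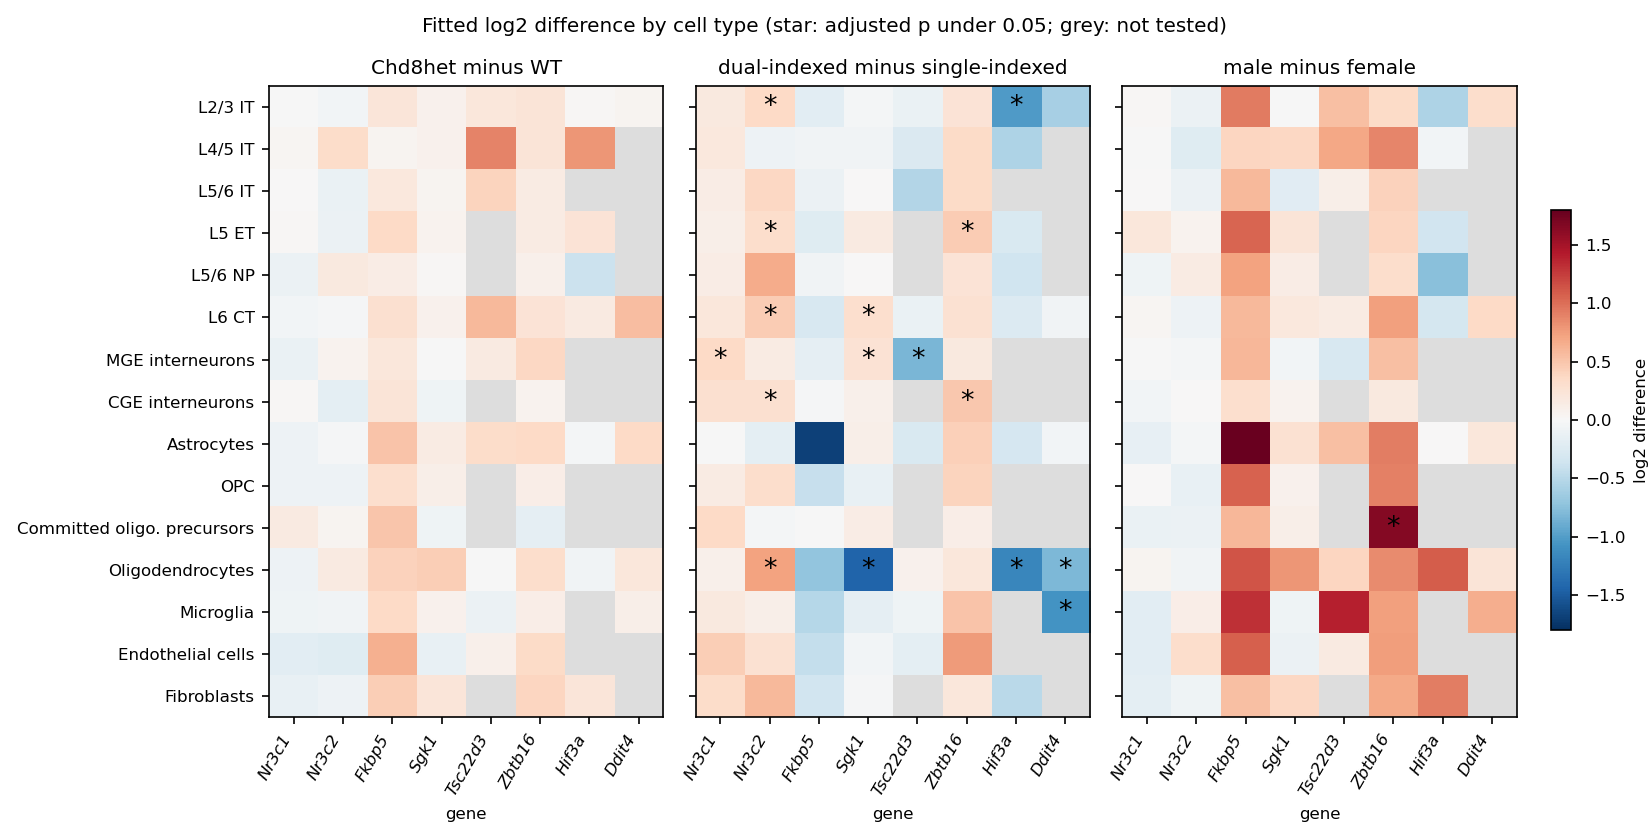
Fitted log2 difference of each gene (columns) in each tested type (rows) for genotype (Chd8het minus WT), index type (dual minus single) and sex (male minus female). Colour gives the size and sign, a star an adjusted p under 0.05, and grey a gene not tested. No star appears for genotype, 16 for index type and 1 for sex, and Fkbp5 and Zbtb16 are positive for sex in all 15 types.

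Sex was compared after the order of the libraries had been seen. Fkbp5 and Zbtb16 each had a fitted difference above 0 (male minus female) in 15 of 15 types, with 50.5% of all tests above 0. For Fkbp5 it ran from 0.30 to 1.78 and for Zbtb16 from 0.18 to 1.65 on the log2 scale. The 1.78, in astrocytes, was 0.965 without WT male 1. All 4 males lay above all 4 females for Fkbp5 in 6 types, for Zbtb16 in 9 and for Tsc22d3 in 1, as in 1.25% of all tests. All 4 females lay above all 4 males in none of them, against 1.42% of all tests. Over all nuclei the edgeR test called 0 of the 8 genes (0.0329% of all genes), with 3 at an unadjusted p under 0.05 (735 of all 21298 genes). Within types it called 1 of 97 (0.0566% of all tests), and 28 had an unadjusted p under 0.05 (3.88% of all tests): 12 for Fkbp5, 11 for Zbtb16, 3 for Tsc22d3 and 1 each for Sgk1 and Hif3a. All of these counts over types repeat the same 8 animals, and Fkbp5 and Zbtb16 varied together over them. They are therefore not independent, and their excess over the share of all tests is not a count of separate findings.

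The gene called was Zbtb16 in committed oligodendrocyte precursors, at 109.5, 202, 52.3 and 47.25 CPM in WT and at 139, 140.3, 53.5 and 35.0 CPM in Chd8het libraries. The 4 males were all above the 4 females, by 1.65 ± 0.24 (edgeR adjusted p 0.00826). That call was lost without WT male 2, WT female 2 or Chd8het female 2. Tsc22d3 in microglia was at 107, 84.1, 19.0 and 42.7 CPM in WT and at 79.1, 78.5, 42.8 and 25.3 CPM in Chd8het libraries, without overlap of the sexes (1.40 ± 0.25, edgeR adjusted p 0.11). Fkbp5 in L5 ET neurons was at 121, 89.85, 27.9 and 47.4 CPM in WT and at 110.4, 99.4, 81.6 and 50.95 CPM in Chd8het libraries, also without overlap (1.05 ± 0.22, edgeR adjusted p 0.473). With a term for index type, chosen after seeing the data, 4 were called: these last 2, Zbtb16 as before, and Fkbp5 in microglia. DESeq2 called the same 4. Of all genes' tests, DESeq2 called 0.0816% and the fit with an index type term 0.0996%. With no count filter 15 of 120 were called (0.256% of all tests). The females included WT female 1, without which the Zbtb16 call in committed precursors held. In that type WT female 1, at 52.3 CPM, lay among the other females. That fit therefore cannot show its part in the types where it was lowest, 14 of 15 for Zbtb16. Litter, cage and time of killing were not tied to libraries in the sources used here, and their part was not tested.

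The genes were then compared by how they varied together. Pearson r and Spearman rho of log2 CPM with Fkbp5 over the 8 libraries were tested by exact permutation over 40320 pairings, adjusted over all genes of a type. None of the 82 tests of the other 7 genes passed an adjusted p of 0.05, nor did any of all genes (0.0%), and the smallest adjusted p among the 82 was 0.252. At an unadjusted exact p under 0.05 there were 22 of 82, against 5.88% of all genes. The median r over all genes and types was -0.00066. Types share the same libraries, so their values are not independent.

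Zbtb16 followed Fkbp5 in all 15 types, in the sense of an r above 0, with a median of 0.73 and a range from 0.12 (CGE interneurons) to 0.91 (L4/5 IT neurons). In L4/5 IT neurons r was 0.91 (exact permutation p 0.00211, adjusted 0.252) and rho 0.90 (exact p 0.00456, adjusted 0.2997). In oligodendrocytes r was 0.84 (exact p 0.00243, adjusted 0.568) and rho 0.86. After subtraction of each index type's mean the median r for Zbtb16 was 0.94 (0.29 to 0.99), and after subtraction of each sex's mean it was 0.59 (-0.36 to 0.79). Leaving out the 2 libraries farthest from the median of Fkbp5 gave a median of 0.39. Leaving out WT female 1 alone also gave 0.39, while leaving out any other single library gave 0.74 to 0.82. The median as measured thus depended most on WT female 1. Values centred by index type were not computed without that library, so its part in them was not tested. Each index type holds 4 libraries, too few for an r of its own.

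Tsc22d3 followed Fkbp5 most closely in the glial and vascular types. In microglia r was 0.87 (exact permutation p 0.00375, adjusted 0.964) and rho 0.83, in endothelial nuclei r was 0.85, in astrocytes 0.82 and in oligodendrocytes 0.78. Without the 2 farthest libraries r was 0.68 in microglia, 0.86 in endothelial nuclei, 0.71 in astrocytes and 0.41 in oligodendrocytes, and after centring by index type it was 0.90, 0.85, 0.80 and 0.90. After centring by sex it was 0.68, 0.89, 0.79 and 0.63. Hif3a followed Fkbp5 in oligodendrocytes (r 0.83, rho 0.88, exact permutation p 0.0105, adjusted 0.677) and astrocytes (r 0.71), with 0.95 and 0.72 without the 2 farthest libraries. In L5/6 NP neurons its r was -0.76 (rho -0.74, exact permutation p 0.037, adjusted 0.997), with -0.72 without the 2 farthest libraries. Centred by sex, the r of Hif3a was 0.79 in oligodendrocytes, 0.83 in astrocytes and -0.63 in L5/6 NP neurons. Hif3a had 197 UMIs in oligodendrocytes, 3241 in astrocytes and only 80 in L5/6 NP neurons, summed over the 8 libraries. The median r of Hif3a over 8 types was 0.01, or -0.27 with types from clusters and 0.39 after centring by sex. For Sgk1, r was 0.73 (rho 0.76) in oligodendrocytes, 0.75 (rho 0.67) in L4/5 IT neurons and -0.74 (rho -0.62) in L5/6 IT neurons, and 0.87, 0.27 and -0.67 without the 2 farthest libraries. Centring by sex gave 0.70, 0.43 and -0.34 for Sgk1 in these types. With types from clusters, Sgk1 in L5/6 IT neurons had an r of -0.42, and Hif3a in L5/6 NP neurons one of -0.41. The receptors had median r values below 0, -0.19 for Nr3c1 and -0.37 for Nr3c2. Nr3c1 in microglia had an r of -0.79 (exact permutation p 0.018, adjusted 0.999) and a rho of -0.88. Its r there was -0.94 without the 2 farthest libraries, and weaker, at -0.57, after centring by sex. Nr3c1 in L5 ET neurons went the other way, with an r of 0.76 (exact permutation p 0.0283, adjusted 0.707) and a rho of 0.60. Its r there was 0.44 without the 2 farthest libraries, 0.19 with types from clusters and 0.53 after centring by sex. Centring by index type left the signs of both medians in place, at -0.14 and -0.35.

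**Figure D5:**
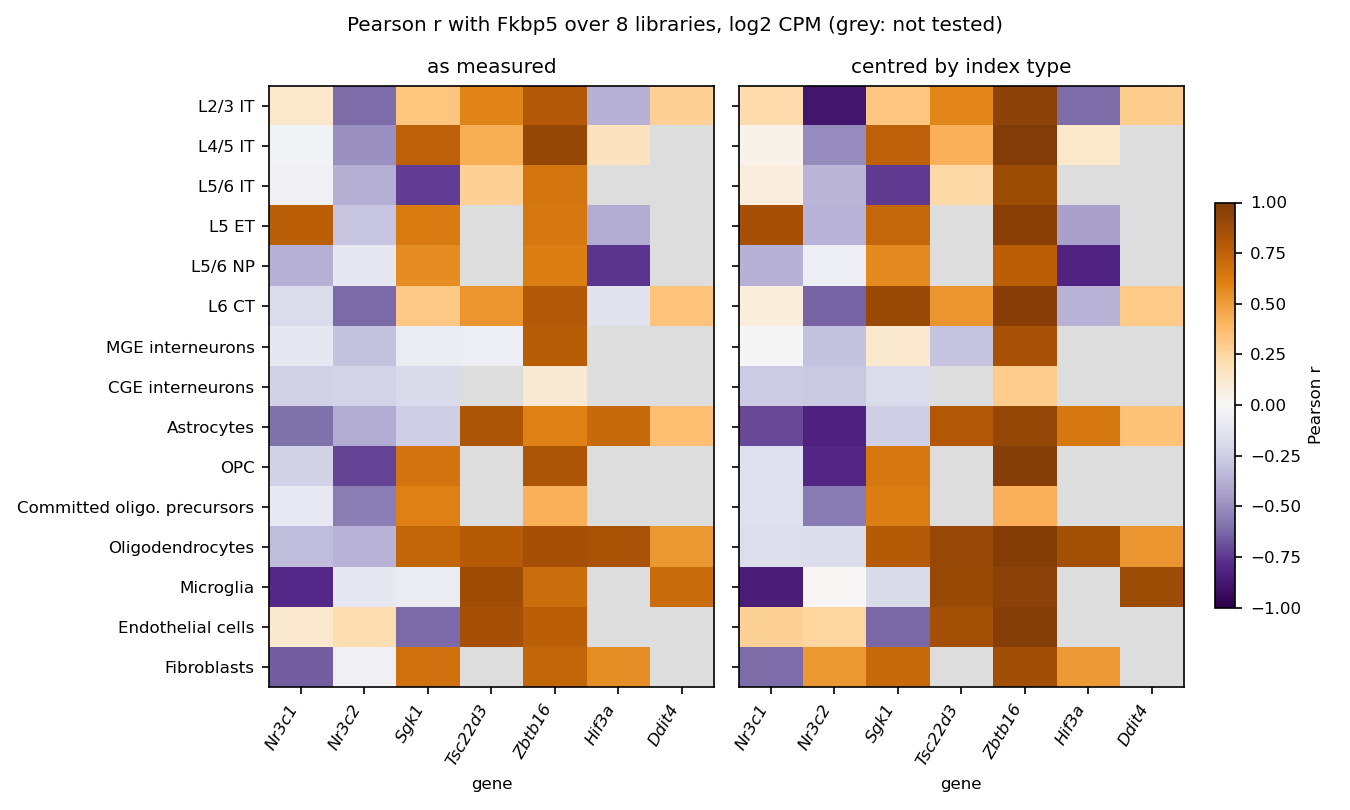
Pearson r with Fkbp5 over the 8 libraries for the other 7 genes (columns) in each tested type (rows), on the left as measured and on the right after subtraction of each index type's mean. Zbtb16 is positive in all 15 types in both panels, and Nr3c2 has a median of -0.37 on the left.

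Among the 2566 genes tested in all 15 types, those with the highest mean r with Fkbp5 over the libraries were Uty (0.70), a Y-linked gene, Zbtb16 (0.68), Klf13 (0.62), Klf9 (0.61), which glucocorticoids are known to induce, mt-Co1 (0.55), Atp2a2 (0.54), Rpsa (0.52), Camk2a (0.51), Tacc1 (0.50) and Pabpc1 (0.49). Klf9 had an r above 0 in 15 of 15 types and Klf13 in 14. After centring by index type the mean was 0.85 for Zbtb16 and 0.63 for Klf9. Uty stood at 109.5 to 122 CPM in the male and at 0.328 to 0.567 CPM in the female libraries over all nuclei. A gene that differs between the sexes can thus rank high here, and the part of sex in this order was not tested.

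A list of 30 other genes known to be induced by glucocorticoids was compared in the same way, 25 of them with enough counts. With Fkbp5 as reference, r was above 0 in 178 of their 218 gene-by-type values, with a median of 0.43, where 49.9% of all values were above 0. The share above 0 was 81.7% here, 79.5% in a list of immediate early genes, 78.3% in one of heat shock genes and 74.3% in one of clock genes. It was 67.3% for chaperone and steroid-handling genes, 58.9% for hypoxia-induced genes and 57.45% for coregulators. The median r of the 25 glucocorticoid-induced genes was 0.35 after centring by sex. The edgeR test called 0 of the 218 between genotypes, with 7 at an unadjusted p under 0.05 (2.63% of all tests), and 0 between sexes, with 38 (3.88% of all tests). DESeq2 also called 0 in both comparisons, with 1 and 31 at an unadjusted p under 0.05. Between index types, dual-indexed libraries had 5 higher and 14 lower calls (8.72%, below the 12.2% of all tests). DESeq2 called 1 higher and 7 lower of 191 tests with an adjusted p, where it called 7.23% of all tests. The calls with the smallest p were Nfkbia in oligodendrocytes (-1.46), which encodes an inhibitor of NF-kappaB, Errfi1 in L2/3 IT neurons (-0.57), an inhibitor of EGF receptor signalling, and Klf9 in oligodendrocytes (-0.58).

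Lists of genes around the receptor and of other stimuli gave shares of calls between index types on both sides of the background of 12.2%. Of 13 chaperone and steroid-handling genes, 2 of 159 tests were called higher and 10 lower in dual-indexed libraries (7.55%), led by Hsp90ab1 in CGE interneurons (-0.50), the chaperone that holds the unbound receptor. The 10 coregulators gave 8 higher and 1 lower of 141 (6.38%). Of 15 clock genes, 8 were higher and 5 lower of 191 tests (6.81%), led by Npas2 in oligodendrocytes (1.16) and Ciart in astrocytes (-0.95). The 14 hypoxia-induced genes gave 8 higher and 5 lower of 124 (10.5%), near the background, among them Pfkfb3 in L6 CT neurons (1.13), a regulator of glycolysis, and Adm in OPC (-1.23 on the log2 scale). Heat shock genes gave 2 higher and 3 lower of 46 (10.9%), also near it. Immediate early genes, which neuronal activity induces within minutes, gave 17 higher and 1 lower of 83 (21.7%), above the pooled 12.2%. They were led by Npas4 (1.85) and Egr1 (1.14) in L5/6 IT neurons. Among the single types whose share was given above, the background ran from 10.4% in microglia to 22.6% in L2/3 IT neurons. Not every gene of a list was tested in every type, and the lists were not compared with the background of the same types. In these 6 lists edgeR called 0 of 744 tests between genotypes, with 11 at an unadjusted p under 0.05 (1.48%, against 2.63% of all tests). Between sexes it called 0 of the 744, with 87 at an unadjusted p under 0.05 (11.7%, against 3.88% of all tests), of which 35 were in the immediate early list (83 tests), 26 in the clock list (191 tests) and 14 in the hypoxia list (124 tests). DESeq2 also called 0 in both comparisons, with 8 and 74 at an unadjusted p under 0.05. Between index types it called 30 higher and 5 lower of 668 tests with an adjusted p, where it called 7.23% of all tests. Median r with Fkbp5 was 0.32 for the clock list and 0.31 for the immediate early list, and after centring by sex it was 0.18 and -0.05.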

How the data were processed

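Per the labels' protocols, nuclei were isolated from flash-frozen cortex of 8 mice with a 10x nuclei isolation kit, processed in parallel, and sequenced on a NovaSeq instrument. The deposited files hold whole-number UMI counts per gene and barcode. The submitters' processing notes name STAR 2.7.9a, STARsolo, Cell Ranger and the mm10 build, with no role or order. Strandedness and the use of intron reads are not given in the sources used here.

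From these counts, barcodes with at least 500 genes and at most 5% mitochondrial UMIs were kept. Doublets were predicted per library with Scrublet in scanpy 1.11.5, at 0.8% expected per 1000 nuclei, and 4000 of 82168 nuclei were removed. Each nucleus took the type whose markers had the highest mean z-scored log level, if that score was at least 0.7, led the next by 0.35 and had 3 markers detected. Counts were summed per library and type, since nuclei are not replicates, and types with at least 30 nuclei in every library were tested.

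Genes passed edgeR 4.0.16 filterByExpr (minimum count 10) and were fitted by its quasi-likelihood test with TMM scaling in R 4.3.3. Terms were sex and genotype, with index type added for its own comparison, and p-values were adjusted by Benjamini-Hochberg over all genes of a type. Standard errors are the log2 difference over the square root of F. Levels are TMM-scaled CPM over the UMIs of the genes that passed the filter in that type, and log2 CPM used a prior count of 2. Correlations used exact permutation of the 8 libraries.

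The 8 genes and the 7 other lists were chosen with earlier results of these data known. The genes named are the 8 themselves, at most 3 called genes with the smallest p per list, the 10 genes most like Fkbp5 over libraries and the 5 most like Nr3c1, Nr3c2 and Fkbp5 over types. Some genes that this rule names are not reported here.

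The labels give the genotypes the same replicate numbers within a sex, and that number equals index type. Deviations of such WT and Chd8het libraries correlated with a median r of 0.324 (0.035 to 0.619), and all 4 pairs exceeded 0.1 in 13 of the 16 units (15 types and all nuclei). Each library is 1 animal, so p-values measure the spread between animals.

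Alternatives were DESeq2 1.42.0 size factors and its Wald test, no count filter, doublets kept, a stricter nucleus filter (at least 1000 genes, at most 1% mitochondrial UMIs), types from Leiden clusters, added or dropped model terms, and leaving out each library. The fit was tested on simulated data drawn from astrocyte counts. For genotype it recovered 88.7% of genes changed by 1 and 100% of those changed by 2 on the log2 scale. It called 8 unchanged genes, with 11550 genes tested in all, changed ones included. For index type it recovered 82.5% and 100%, with 4 unchanged genes called. The simulated counts held no sex or index type difference, and their dispersions came from a fit with index type. The real genotype fit had no index type term, so these shares do not measure its recovery.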

Additional observations from a re-analysis of the deposited data

Results flagged for a closer look

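In 46 groups of 4 libraries of 1 genotype, the distance of the highest or lowest library from its nearest neighbour was compared with the whole range, and 2 groups exceeded the 95% critical value of Dixon's test. Chance alone marks about 1 in 20 such groups if they are not selected. The pairs of gene and type behind the 46 groups were a chosen part of those tested, Fkbp5 in astrocytes included. The 2 of 46 can therefore not be set against that rate.

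Fkbp5 in astrocytes of WT male 1 stood at 570.9 CPM, while the other 3 WT libraries lay between 26.5 and 118 CPM, a gap of 0.832 of the range. Among Chd8het libraries, male 1 was also the highest for Fkbp5 in astrocytes, at 446 CPM.

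Nr3c2 in L2/3 IT neurons of WT male 1 stood at 103.9 CPM, below the other 3 WT libraries, which lay between 145.9 and 147.6 CPM, a gap of 0.96 of the range. The Chd8het libraries were at 108 and 111 CPM when single-indexed and at 155 and 149 CPM when dual-indexed.

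No sex by genotype difference was called by edgeR in 105 tests of the 8 genes. Within types 6 of 97 had an unadjusted p under 0.05, against 2370 of 155596 tests of all genes.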

How the results depend on the processing

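Between genotypes the count of calls was 0 under each alternative run, the fit with the replicate block (0, against 0.0257% of all tests) and DESeq2 (0, against 0.00257%) included. The fitted difference of Fkbp5 in astrocytes turned to -0.0102 without the sex term, and those of Zbtb16 turned to -0.0498 in astrocytes and -0.18 in oligodendrocytes without WT female 1. The 16 calls between index types became 10 with the DESeq2 Wald test (7.23% of all tests called) and 26 with no count filter (7.31%), all of the 10 and 16 of the 26 being among the original calls (DESeq2 gave no adjusted p for 1 of the 16, Ddit4 in microglia), and ran from 7 to 21 when 1 library was left out (8 without WT male 1, 7 without WT male 2, 9 without Chd8het male 1, and 9 without Chd8het male 2). Between index types the DESeq2 Wald test gave 1 higher and 7 lower calls in 191 tests of the other glucocorticoid-induced genes (5 and 14 by edgeR). It gave 30 higher and 5 lower in 668 tests of the 6 further lists, where it called 7.23% of all tests. The 1 call between sexes became 4 with the DESeq2 Wald test (0.0816% of all tests called), 15 with no count filter (0.256%) and 4 with an index type term (0.0996%), and 0 to 2 when 1 library was left out. The median r of the other 7 genes with Fkbp5, 0.19, ran from 0.10 to 0.27 when 1 library was left out. The type with the highest level was the same for all 8 genes with types from clusters, for 7 or 8 when 1 library was left out, and for 5 under the stricter nucleus filter. That filter left endothelial nuclei too few to be tested, and the first type became microglia for Nr3c1, fibroblasts for Zbtb16 and oligodendrocytes for Ddit4. Of 428 refitted single differences with an adjusted p, 345 kept their direction and their side of the threshold, 70 lost a call, 10 gained one and 3 turned. The cause of these changes was not tested. The 428 included refits of chosen differences that were not called at first, such as Fkbp5 in astrocytes for genotype and for sex. Those could not lose a call, so 345 of 428 does not measure how stable the calls were. Depth limits the scarce genes: Ddit4 was tested in 5 types and Hif3a in 8. With 4 animals a group, the standard error of the genotype difference of Fkbp5 in astrocytes was 0.76 on the log2 scale.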

Other observations

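Types outside the tests, which had fewer than 30 nuclei in at least 1 library, gave further levels. Nr3c1 stood at 236.9 CPM in mural nuclei (388 nuclei in all, 146 UMIs), Nr3c2 at 198 CPM and Zbtb16 at 233 CPM. Levels in these types too are relative to the UMIs of the genes that passed the count filter there. They are not on one scale with the levels of other types. Zbtb16 in mural nuclei had 29 UMIs in WT male 2 and 1 UMI in WT female 1, too few for a fold. In striatal projection neurons, carried along in the dissection with 10 to 161 nuclei per library, Sgk1 was at 189 CPM, Nr3c2 at 192 CPM and Fkbp5 at 55.8 CPM.

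Mt1, a metallothionein gene that glucocorticoids and metals induce, was at 94.3 CPM over all nuclei in Chd8het male 1 and at 23.4 CPM in WT male 2, the highest and lowest libraries.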
